A study of Ambystoma mexicanum with 2 samples.

Results

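Among the small RNA sequences of axolotl tail that did not map to mirBase, 267 families of 7785 resembled let-7. The members are the miR-pn families, the authors' groups of similar unmapped sequences, for which the deposited family table lists at least 1 name that starts with let-7 among the partial homologies. Families that also listed one of the muscle microRNAs (miR-1, miR-206, miR-133, miR-499 and miR-208) were to be left out, and 0 families did so. The 267 families hold 3174 of the 41233 family sequences. The reads compared come from 2 libraries of Ambystoma mexicanum, 1 per condition: blastema tissue of the tail 3 days post injury, and control tissue from uninjured tails that had never regenerated. Tail tissue of 20 mature animals was pooled, so that each value averages over animals and over all cell types of the tail, and fewer cells of a type cannot be told apart from less RNA per cell.

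let-7 was first described in the nematode Caenorhabditis elegans, where it times the passage of cells to their adult fate. Its mature sequence is almost the same in most animals with bilateral symmetry, and in vertebrates many let-7 genes give near-identical paralogues that accumulate as cells differentiate and repress genes such as Lin28, Hmga2 and Ras. A microRNA finds its targets mainly through the seed, bases 2 to 8 from its 5′ end, which in let-7 is GAGGTAG as written in DNA letters. Sequences that share a microRNA's core but differ at their ends or at single bases are called isomiRs.

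Of the 10 most abundant let-7-like families, 8 are listed with a sequence that begins with the 7 bases of this seed. Such sequences lack the first base of let-7, so the 7 bases are not at bases 2 to 8 of the read. Of the 3174 let-7-like sequences, 1005 begin with them and 11 have them at bases 2 to 8. A seed is called intact below when the read begins with it, and targeting was not tested. For 7 of the 8 families the listed most common sequences are given first, and these 7 differ from one another only after base 11 of let-7. Capitals mark the 7 bases of the seed.
Amex-miR-pn408: GAGGTAGtagtttgtgtagtta
Amex-miR-pn4097: GAGGTAGtagtttgtgtagttaa
Amex-miR-pn2432: GAGGTAGtaggttgtgtggttaa
Amex-miR-pn4093: GAGGTAGtaggttgtgtggttat
Amex-miR-pn4039: GAGGTAGtaggttgtgtggtttt
Amex-miR-pn2433: GAGGTAGtagtttgtacagtta
Amex-miR-pn1240: GAGGTAGtagtttgtgctgttta

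In most other families 1 or 2 bases of the seed were changed. The next sequences are large families with adenine changed to cytosine, adenine changed to guanine and thymine changed, shown because these classes divide the libraries, with the first 7 bases in capitals so that they can be set against GAGGTAG. Changes are named by the base of let-7, its position counted from 1 at the 5′ end of let-7, and the base found, so that the first base of these sequences is position 2.
Amex-miR-pn4539 (A3C+A7C): GCGGTCGtagattgtatcgtt
Amex-miR-pn4221 (A3C+A7C): GCGGTCGtagattgtctagtt
Amex-miR-pn4250 (A3G+A7G): GGGGTGGtaggttgtgtgggg
Amex-miR-pn4992 (A3G+A7G): GGGGTGGtaggttgtatggat
Amex-miR-pn2363 (T6G): GAGGGAGgagattgtatagtta
Amex-miR-pn4020 (T6C): GAGGCAGgagattgtataggt

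The deposited counts sum to 9952885 reads for the blastema library and 12613931 for the control library, and shares are given of these totals unless stated otherwise. Each condition has 1 library, so the spread between replicates is unknown and no p-value can be given. A difference in library preparation or sequencing cannot be told apart from a difference between the tissues. Intervals are 95% intervals that cover counting error alone, as reads copied by PCR are not separate molecules. Every count of the 59811 unmapped sequences is even, with 0 odd ones, while 239 of the 334 known entries of the let-7 list below had an odd count. Why was not determined, and each unmapped read may have been counted 2 times. In that case the let-7-like shares given next would be 0.469% in the blastema and 0.418% in the control. Intervals of log2 ratios are therefore given with each count divided by 2, which widens them. The library totals were divided by 2 as well, so the log2 ratios themselves were not moved. Unmapped reads were 20.6% of the blastema total and 9.38% of the control total. Dividing only these would raise each log2 ratio somewhat, and the intervals do not cover that shift. The muscle microRNAs (known labels of the miR-1, miR-206, miR-133, miR-499 and miR-208 families) took 14.3% of the blastema reads and 67.4% of the control reads, which lowers the share of all other reads in the control. Beyond the use of other totals, their part in the results was not tested. Leaving them out of the total adds -1.39 to each log2 ratio, and edgeR's TMM scaling adds -2.14.

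Together, the let-7-like families had 83712 reads in the blastema library and 100568 in the control library. These are shares of 0.841% in the blastema (Wilson interval from the counts as deposited, 0.835 to 0.847) and 0.797% (0.792 to 0.802) in the control. The log2 ratio of blastema over control, with 0.5 read added to each count, was 0.08 (0.06 to 0.10). This small difference was beyond the counting error, but its direction depended on the total: the log2 ratio was -1.32 without the muscle microRNAs and -2.06 with TMM. Of the unmapped reads, let-7-like families took 4.08% in the blastema and 8.50% in the control.

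Known let-7 reads were far more numerous. The list of known labels held let-7, let-7a to let-7k and their relatives miR-98 and miR-202, and it gathered 2516549 blastema reads and 1760352 control reads. There were thus 33.3 let-7-like reads for each 1000 known let-7 reads in the blastema and 57.1 in the control, or 16.6 and 28.6 with the unmapped counts divided by 2. Of the 14 known labels, 13 had a higher share in the blastema, and 3 without the muscle microRNAs in the total. The same count over all known labels was not made, so the 13 cannot be set against a background. let-7f, the largest, had 1021519 reads in the blastema and 562472 in the control, a log2 ratio of 1.20. The largest log2 ratios among them were 3.31 for miR-202, with only 183 blastema reads and 23 control reads, and 2.73 for let-7i, with 159766 and 30544. let-7c was the 1 label with a lower share in the blastema, at 138792 blastema reads and 190054 control reads (log2 ratio -0.11). The others lay between 0.42 for let-7h and 1.52 for let-7g, with let-7a at 0.51, let-7b at 0.58, let-7d at 0.44, let-7e at 1.35, let-7j at 1.37, let-7k at 1.15, miR-98 at 1.15 and the label let-7 at 0.58. With TMM only miR-202 and let-7i kept a log2 ratio above 0. Reads were mapped with up to 2 mismatches and let-7 paralogues are near-identical, so a read may be counted under the label of another paralogue. The labels are therefore not separate measurements of each paralogue.

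The near balance of the let-7-like sum was made of families that differed strongly in opposite directions. A total of 10 reads in the 2 libraries was reached by 266 families. Among them, 122 (45.9%) differed by 2-fold or more with the higher share in the blastema, and 92 (34.6%) with the lower share in the blastema. Over all 6846 families with as many reads, 75.1% were higher by 2-fold or more and 16.3% lower. Over the 1258 families with another homology these were 49.3% and 36.9%, close to the let-7-like families. The median log2 ratio was 0.73 for let-7-like families, 0.95 for families with another homology and 2.61 for all families (2.37 when families with a count of 0 were set to their bound). The middle part of the let-7-like families, between the quartiles, ran from -2.09 to 2.66. Among the 192 let-7-like families with at least 100 reads, 79 (41.1%) were higher, 78 (40.6%) were lower and the median was -0.21, where 67.0% of all families with as many reads were higher, 25.4% were lower and the median was 2.24.

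**Figure D1:**
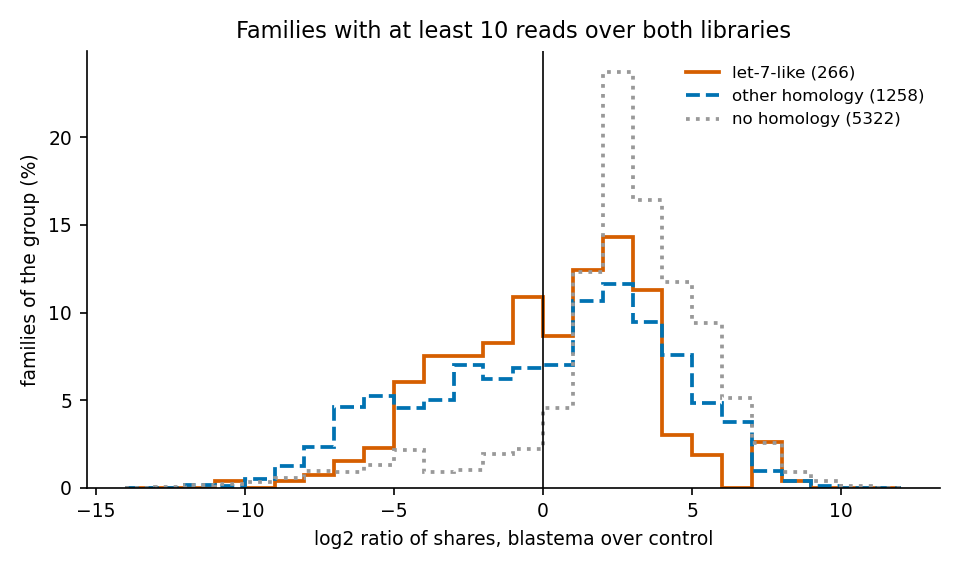
Share of families (%, vertical axis) at each log2 ratio of blastema over control in bins 1 unit wide, for let-7-like families, families with another homology and families with none, each with at least 10 reads over both libraries. Let-7-like families spread to both sides of 0 with a median of 0.73, and families without a homology lie mostly above 0.

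Most reads of the let-7-like families came from few of them. A family had between 8 and 36426 reads over both libraries, with a median of 202, and it held between 1 and 93 sequences, with a median of 9. The 10 families with the most reads took 56.9% of the let-7-like reads of the blastema and 45.5% of those of the control. 7 of these 10 are the families with an intact seed listed at the start.

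Amex-miR-pn408, the largest, had 22732 reads in the blastema and 13694 in the control, a log2 ratio of 1.07 (1.03 to 1.12). Amex-miR-pn4097, which has 1 more adenine at its 3′ end, had 2802 blastema reads and 1646 control reads, with a log2 ratio of 1.11 (0.98 to 1.23). Both list let-7b first among their homologies, and their ratios cannot be told apart within the counting error. Both ratios turn negative, to -0.32 and -0.28, when muscle microRNAs are not counted in the total.

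Amex-miR-pn2433, for which let-7g is listed first, had 5558 reads in the blastema and 2816 in the control (log2 ratio 1.32, 1.23 to 1.41). The known label let-7g had a log2 ratio of 1.52. Amex-miR-pn1240, for which let-7i is listed first, had 2108 blastema reads and 1000 control reads (log2 ratio 1.42), while the known label let-7i stood at 2.73. In both cases the unmapped family and the known label lay on the same side of 0 with this total, and the family was nearer to 0. With TMM both families were below 0, at -0.81 and -0.72, where the labels let-7g and let-7i had -0.61 and 0.59. Without the muscle microRNAs Amex-miR-pn2433 had -0.07 and let-7g 0.13, and Amex-miR-pn1240 had 0.02 and let-7i 1.33. The side of 0 thus depended on the total, while the family had the lower ratio of each pair throughout.

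The families Amex-miR-pn2432, Amex-miR-pn4093 and Amex-miR-pn4039 are listed with sequences of 23 bases that share all but the last 2. Amex-miR-pn2432, which ends in aa, had 10016 reads in the blastema and 8528 in the control, a log2 ratio of 0.57 (0.51 to 0.63). Amex-miR-pn4093, ending in at, had 2630 and 4470 (-0.42, -0.52 to -0.32). Amex-miR-pn4039, ending in tt, had 1270 and 2650 (-0.72, -0.86 to -0.58). The 3 intervals do not overlap, so that these families stood in different proportions in the 2 libraries. Only the listed sequences are known to share 1 core, as the families hold 86, 46 and 16 sequences. The listed sequences alone had 4212 blastema reads and 2534 control reads, 2040 and 3582, and 1054 and 2396. The member of Amex-miR-pn2432 with the most reads was GAGGTAGtaggttgtgtggtaa, with 3722 and 4180 reads.

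The remaining 3 of the 10 largest families had far lower shares in the blastema. Amex-miR-pn4250 had 78 blastema reads and 4162 control reads, a log2 ratio of -5.39 (-5.83 to -4.92), and Amex-miR-pn4992 had 246 and 3654 (-3.55, -3.81 to -3.28). In these families the seed carries A3G and A7G. Amex-miR-pn2430 (GAGGTAGaaggatgtatagat) kept the seed and had 194 and 3110 reads (-3.66, -3.95 to -3.36).

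**Figure D2:**
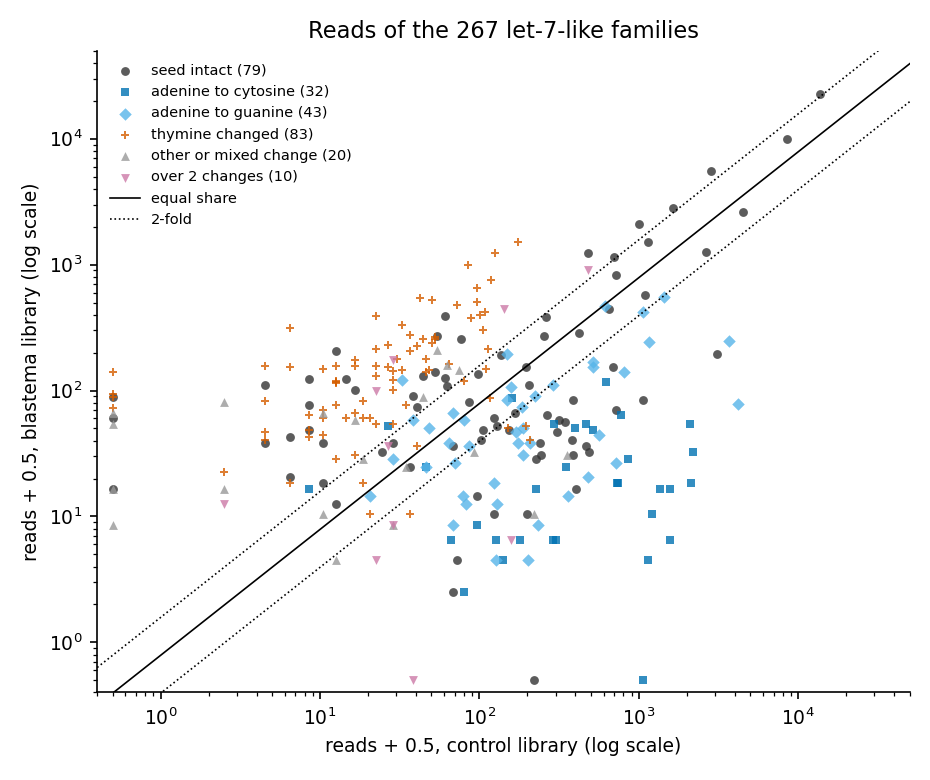
Reads of each of the 267 let-7-like families in the control library (horizontal axis) and the blastema library (vertical axis), both with 0.5 added and on log scales, marked by the change of the first 7 bases of the listed sequence from the let-7 seed. The solid line is an equal share and the dotted lines a 2-fold difference; the families with an adenine changed lie mostly below the lines and those with the thymine changed mostly above.

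Families were then grouped by how the first 7 bases of their listed sequence differ from the let-7 seed, a grouping chosen after the values were seen. The seed was intact at the very start in 79 families, 149 families had 1 change and 29 had 2. The other 10 had more than 2 changes when read from the first base. Of all 3174 member sequences, 32.7% contain GAGGTAG on the sequenced strand, against 0.460% of the 38059 sequences of all other families, and 1005 of them begin with it. The reverse complement CTACCTC was in 0 let-7-like sequences and in 0.0184% of the others. The listed homologies come from a search that favours such matches, so that the presence of the seed is not independent of the rule. The rule for members did not use how the changed seeds divide between the libraries. The classes were picked with that division known, however, and many sequences entered mainly through the library where they are high. The division described next is therefore not independent evidence. It also cannot be told apart from base errors that differ between the 2 libraries, which were not tested.

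Adenine changed to cytosine marked families that were low in the blastema. In 32 families position 3, position 7 or both were changed in this way, with 868 reads in the blastema and 21746 in the control, a log2 ratio of -4.30 (-4.44 to -4.17). Of the 32, 28 were at least 2-fold lower and 2 at least 2-fold higher, where 16.3% of all families were lower. The median log2 ratio was -4.51. Amex-miR-pn4539 had 32 blastema reads and 2188 control reads (-5.73, -6.41 to -5.01). Amex-miR-pn4221 had 54 and 2104 (-4.93, -5.46 to -4.37).

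In the 3 let-7-like families of at least 100 reads with the lowest fitted ratios, the member with the most reads carried such a change. The place of Amex-miR-pn4208 among them rests on the 0.5 read added to a count of 0. Amex-miR-pn4534 had 0 reads in the blastema and 1054 in the control over 10 sequences, so that, with 3 reads in place of the 0, its blastema share was at least 277-fold lower (139-fold with counts divided by 2). Its listed most common sequence held only 14 of these reads, and GCGGTCGtcggttgtctcgttt, which carries A3C+A7C, held 560. Amex-miR-pn4208 had 0 blastema reads and 218 control reads, at least 57.3-fold lower (28.7-fold with counts divided by 2). Its listed sequence GAGGTAGtcggttgtgtggttc has the seed intact and had 22 reads, but its member with the most reads, GAGGTCGtcggttgtgtggttt, carries A7C and had 66. Amex-miR-pn4538 had 4 blastema reads and 1144 control reads (-7.65, -9.29 to -5.71), and GCGGTCGtcggttgtgtggtt held 436 of the control reads.

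Adenine changed to guanine went the same way but less far. The 43 families with A3G, A7G or both had 4032 blastema reads and 19716 control reads, a log2 ratio of -1.95 (-2.02 to -1.88). Of these, 27 were lower by 2-fold or more and 1 was higher, beside 16.3% and 75.1% of all families, and the median was -1.41. The 11 families with both changes had a median of -3.55, while the 26 with A3G alone had -1.02. Amex-miR-pn4213 (GGGGTAGaaggttgtatagat), the largest with A3G alone, had 556 and 1438 reads (-1.03, -1.23 to -0.83).

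A changed thymine at position 6 marked families that were high in the blastema. There were 83 of them, with 17306 reads in the blastema and 3564 in the control, a log2 ratio of 2.62 (2.55 to 2.69). Of the 83, 73 were higher by 2-fold or more and 4 lower, beside 75.1% of all families that were higher. The median was 2.84, close to the median of 2.61 over all families, so that these families stood out from the other let-7-like families rather than from the unmapped families as a whole. By the base found, the median was 2.99 for the 38 families with T6G, 3.05 for the 25 with T6C and 1.92 for the 20 with T6A.

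Amex-miR-pn2363, the largest with T6G, had 1504 reads in the blastema and 174 in the control, a log2 ratio of 3.45 (3.13 to 3.77). Amex-miR-pn4020, with T6C, had 994 and 84 (3.90, 3.44 to 4.34). The 3 largest ratios among let-7-like families with at least 100 reads all belonged to T6G families. Amex-miR-pn4111 (GAGGGAGgagattgtagagt) had 312 and 6 reads (5.93, 4.30 to 7.35) and Amex-miR-pn4120 (GAGGGAGgaggttgtagagtta) had 156 and 4 (5.46, 3.50 to 7.13). Amex-miR-pn7328 (GAGGGAGgagtttgtgctggt) had 140 blastema reads over 11 sequences and 0 control reads, at least 59.1-fold higher, or 29.6-fold with counts divided by 2. Amex-miR-pn7329 (GAGGGAGgagtttgtgctgtta), with fewer reads in all, had 94 and 0, at least 39.7-fold or 19.9-fold higher. The listed sequences of all these named families also have guanine at position 9, so in them the change at position 6 cannot be told apart from that base. Sequences with an intact seed and guanine at position 9 stood at 2.58. Amex-miR-pn4131, with T6G and thymine at position 9, had 760 and 118 reads (3.02, 2.62 to 3.41). In all, 11 let-7-like families (4.12%) had no control read and 3 (1.12%) no blastema read, where 24.6% and 4.66% of all families had none.

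**Figure D3:**
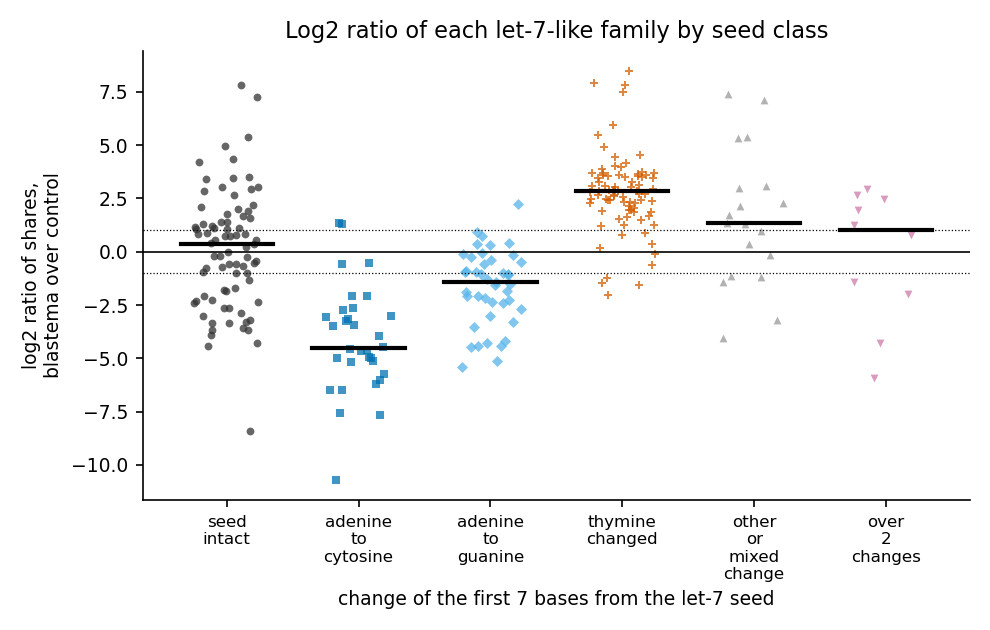
Log2 ratio of blastema over control (vertical axis) of each let-7-like family with at least 10 reads, by the change of the first 7 bases from the let-7 seed; bars are medians and dotted lines a 2-fold difference, and families with a count of 0 are drawn with 0.5 read added. By the listed sequence, the medians are -4.51 for adenine to cytosine, -1.41 for adenine to guanine, 2.84 for a changed thymine and 0.34 for an intact seed. With families placed by their member with the most reads (not drawn), they were -3.72, -1.06, 2.88 and -0.0091. For intact seeds by the listed sequence with at least 100 reads, the median was -0.42.

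The directions of these 3 classes did not depend on the total. Under the 6 other scalings tried, the summed log2 ratio ran from -6.44 to -4.11 for adenine to cytosine, from -4.08 to -1.76 for adenine to guanine and from 0.48 to 2.81 for a changed thymine. The number of families with a changed thymine past 2-fold did change: 55 were higher and 8 lower without the muscle microRNAs, and 30 and 10 with TMM, where the median was 0.71 and 60 of the 83 were above 0. The summed log2 ratio of the 79 families with an intact seed was 0.47 (0.45 to 0.50), and it went below 0 with every other total but that of known reads, down to -1.66 with TMM.

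Each of the 3174 sequences was also placed by its own first 7 bases, whatever its family. This regroups the same reads in the same classes, so that a like division is not separate support. Sequences with adenine changed to cytosine took 1.27% of the let-7-like reads of the blastema and 23.0% of those of the control. For adenine changed to guanine the shares were 5.05% and 19.4%, for a changed thymine 21.5% and 3.12%, and for an intact seed 66.5% and 51.4%. Set against the known let-7 reads, there were 0.422 reads with adenine changed to cytosine for each 1000 known let-7 reads in the blastema and 13.1 in the control. For a changed thymine there were 7.17 and 1.78.

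**Figure D4:**
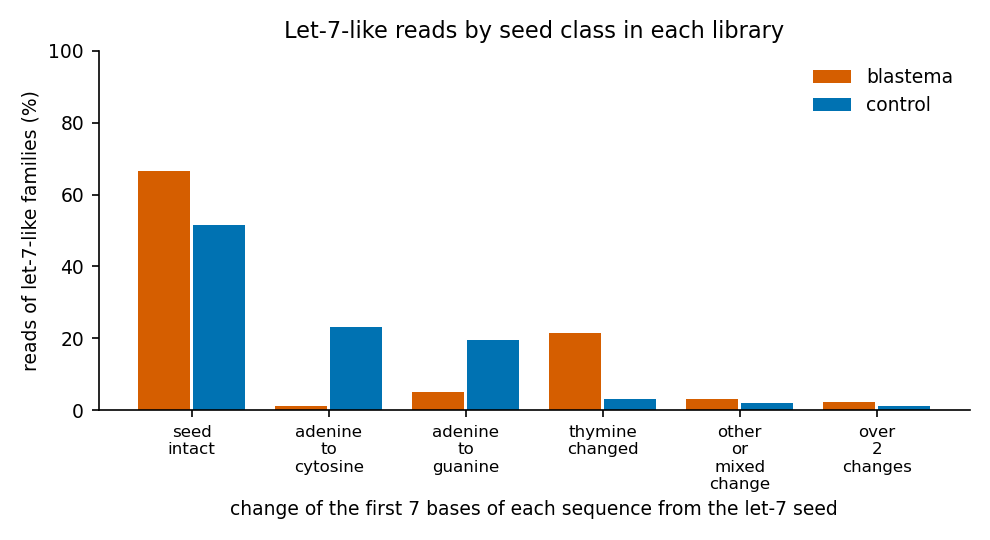
Share of the reads of let-7-like families (%, vertical axis) in the blastema and the control library that fall on sequences of each seed class, each sequence placed by its own first 7 bases. Changed adenines take 23.0% and 19.4% of the control reads, and a changed thymine takes 21.5% of the blastema reads.

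Single changes were compared base by base among sequences with exactly 1 changed seed base. The 357 sequences with T6G had 8282 reads in the blastema and 1152 in the control (log2 ratio 3.19, 3.06 to 3.31). T6C was found in 288 sequences with 6380 and 1114 reads (2.86, 2.73 to 2.99), and T6A in 230 with 3372 and 872 (2.29, 2.14 to 2.44). At position 7, A7C was found in 144 sequences with 356 blastema reads and 4966 control reads (-3.46, -3.68 to -3.24). A3C was in 170 sequences with 538 and 5432 reads (-2.99, -3.17 to -2.81). A3G, with 2926 and 5814 reads (-0.65, -0.74 to -0.56), and A7G, with 440 and 1178 (-1.08, -1.30 to -0.85), lay nearer to 0. The guanines of the seed were changed more rarely: G5A, in 33 sequences with 108 and 698 reads, was lower in the blastema (-2.34, -2.75 to -1.93), and G4T, in 15 sequences with 324 and 20 reads, was higher (4.33, 3.39 to 5.19).

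**Figure D5:**
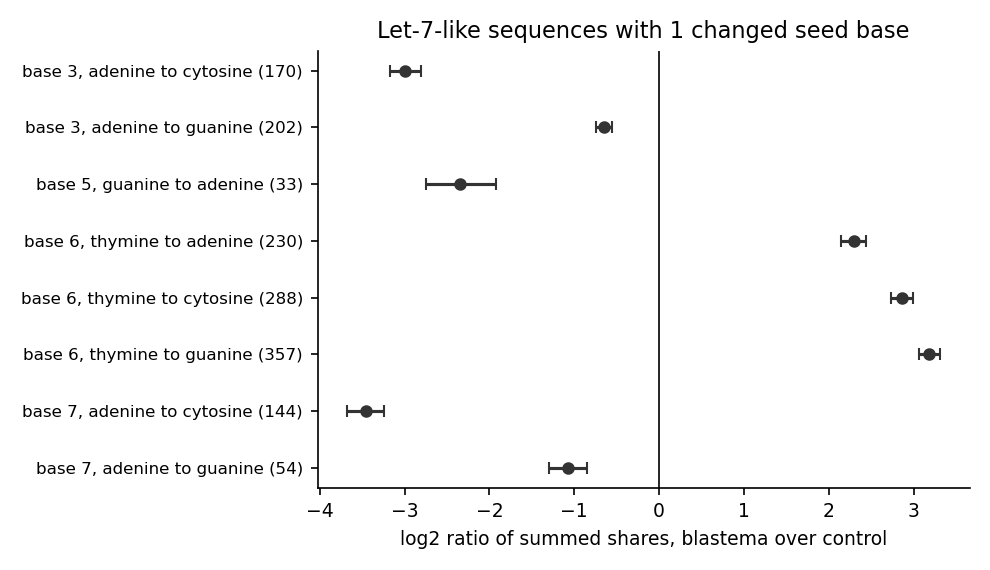
Log2 ratio of the summed shares, blastema over control (horizontal axis), of let-7-like sequences with 1 changed seed base, for the changes found in at least 20 sequences (number of sequences in parentheses). Bases after the seed were not held fixed. Bars are 95% counting-error intervals with each count divided by 2; the 3 changes of base 6 lie between 2.29 and 3.19, and the other changes lie below 0.

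Bases just after the seed also divided the libraries, but only in part as the changes of the seed did. Of the 1005 sequences that begin with an intact seed, 603 go on with thymine at position 9, with 51928 reads in the blastema and 41458 in the control (log2 ratio 0.67, 0.64 to 0.69). Guanine at position 9 was found in 95 sequences with 1712 and 362 reads (2.58, 2.35 to 2.81). Adenine there was found in 216 sequences with 1212 and 9110 reads (-2.57, -2.69 to -2.44), while T6A in the seed gave 2.29. Cytosine at position 9 was found in 91 sequences with 852 and 776 reads (0.48, 0.28 to 0.67), while T6C gave 2.86. Cytosine in place of the usual adenine at position 10 was found in 48 sequences with 210 and 1168 reads (-2.13, -2.43 to -1.83). Paralogues of let-7 differ at some of these bases in other species, so a base here cannot be called a change as in the seed.

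The first 18 bases of the sequences with an intact seed show which let-7 cores they carry, and the 4 most abundant took 79.8% of the reads of such sequences in the blastema and 67.1% in the control. GAGGTAGtagtttgtgta had 24288 blastema reads and 14868 control reads over 36 sequences (log2 ratio 1.05, 1.01 to 1.09). GAGGTAGtaggttgtgtg had 13152 and 15444 over 69 sequences (0.11, 0.06 to 0.16). GAGGTAGtagtttgtaca had 5098 and 2626 (1.30, 1.20 to 1.39), and GAGGTAGtaggttgtatg had 1926 and 1778 (0.46, 0.33 to 0.59). The next, GAGGTAGaaggatgtata, with adenine at position 9, had 254 and 3350 reads (-3.38, -3.63 to -3.11). The base at position 12 did not sort the cores: GAGGTAGtaggttgtata, with guanine there, had 656 and 288 reads (1.53), and GAGGTAGtagtttgtgtc, with thymine, had 72 and 418 (-2.19).

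Among families with an intact seed, those for which let-7b is listed first numbered 29, with 42582 blastema reads and 36386 control reads. Their summed log2 ratio was 0.57 (0.54 to 0.60), and that of the known label let-7b was 0.58. The sum joins families in opposite directions, 13 higher and 16 lower in the blastema. Amex-miR-pn408 alone held 22732 of these blastema reads. The 5 families with let-7c first had 0.32, where the known label had -0.11. For let-7f the 8 families had -1.60 (442 and 1704 reads) and the known label 1.20, and for let-7a the 12 families had -1.60 (1366 and 5260 reads) and the known label 0.51. Amex-miR-pn2430 alone held 194 of these let-7a blastema reads and 3110 of the control reads. Of the 12 families, 4 were higher and 8 lower in the blastema. The 6 families with the label let-7 first had -1.03, against 0.58 for the known label, while those with let-7e, let-7g, let-7i or let-7j first lay above 0 as their known labels did. The known let-7a and let-7f labels were themselves below 0 without the muscle microRNAs (-0.88 and -0.19) and with TMM (-1.63 and -0.93). These totals lower the families by the same amount, so the distance between families and labels did not change. This order of names is that of the deposited table, and what it ranks by is not given in the sources used here. The known labels may also hold reads of one another, as stated above.

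Let-7-like sequences were 20 to 23 nucleotides long, as were the sequences of all other families. The paper names 20 to 22 nucleotides as the length of the reads that were mapped, so this range cannot be read as a trait of let-7-like RNA. By reads, 22 nucleotides was the most common length in the blastema, with 59.8% of the let-7-like reads, against 39.0% in the control, where 21 nucleotides took 41.7% (17.2% in the blastema). Sequences of 21 nucleotides had a log2 ratio of -1.20 and those of 22 nucleotides 0.69. For all other families the share of 21 nucleotides was 28.0% in the blastema and 57.3% in the control. Length differed by seed class in the control. There, 92.3% of the reads with adenine changed to guanine and 50.5% of those with adenine changed to cytosine were 21 nucleotides long. With an intact seed 52.7% were 22 nucleotides long, and with a changed thymine 53.4%. In the blastema 73.9% of the reads with adenine to guanine had 21 nucleotides, but 55.7% of those with adenine to cytosine had 22 and 31.3% had 21. Reads within 2 mismatches of a known entry were counted as known. Which lengths and seeds remain unmapped thus depends on that rule, and its part was not tested. By the last base, intact sequences that end in adenine had 44640 reads in the blastema and 30310 in the control (0.90, 0.87 to 0.93), and those that end in thymine had 9446 and 18556 (-0.63, -0.68 to -0.58).

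Of the 10 families with more than 2 changes, 5 hold the whole seed further inside the sequence. Amex-miR-pn3516 (ctGAGGTAGtagattgtatagtt) has the seed from position 3 of the sequence, preceded by the thymine with which let-7 starts and 1 cytosine more, and had 910 reads in the blastema and 482 in the control. Amex-miR-pn3519 (ctGAGGTAGtagtttgtgctg) had 174 and 28 (2.96, 2.13 to 3.74). Amex-miR-pn993 (CTATACAttctactgccttgct), with 444 and 142 reads (1.98, 1.60 to 2.36), and Amex-miR-pn1878, with 98 and 22, have no seed and resemble the opposite arm of the let-7 hairpin, the strand that is usually discarded. Lower in the blastema were Amex-miR-pn5484 (GGGGTGTtaggttgtatggat), with 6 and 158 reads (-4.27), Amex-miR-pn5552, with 0 and 38, and Amex-miR-pn5260 and Amex-miR-pn3520, which have the seed at position 3, with 8 and 28 and with 4 and 22. By their listed sequence, 4 of the 267 families have the seed at position 3, and 259 begin with guanine.

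Within families, member sequences that differ at exactly 1 base from the member with the most reads were compared by the kind of change, over the whole length of the sequence. There were 673 such sequences in let-7-like families. The 82 with thymine changed to guanine had 1328 reads in the blastema and 666 in the control (log2 ratio 1.34, 1.15 to 1.53), and the 86 with adenine changed to cytosine had 636 and 2706 (-1.75, -1.92 to -1.57). The reverse change, cytosine to adenine, had the lowest ratio, with 216 and 1898 reads (-2.79, -3.07 to -2.50), and gave -1.04 in all other families. Thymine changed to cytosine (984 and 1256 reads) gave -0.01, with an interval of -0.18 to 0.16 that includes 0. In all other families the 926 sequences with thymine changed to guanine gave 1.98 (1.92 to 2.03), and the 889 with adenine changed to cytosine gave 0.65 (0.63 to 0.68). In all other families the summed reads of every kind of change but cytosine to adenine were above 0, with cytosine to thymine at 1.79. A few abundant sequences can outweigh the rest in such sums. By number of sequences, 573 of the 889 with adenine to cytosine were lower there, as were 65 of the 86 in let-7-like families. Of the 766 with cytosine to adenine, 486 were higher there, against 11 of the 27 in let-7-like families. The summed reads of all families stood at 1.14. The ratio above 0 for thymine to guanine was thus not particular to let-7-like families. Within these, the 80 sequences with thymine changed to adenine went the other way (-0.51). Leaving out the muscle microRNAs adds -1.39 to each of these ratios, and TMM adds -2.14.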

How the data were processed

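Total RNA was extracted with Trizol from pooled tail tissue, and the small RNA fraction was sequenced on the Illumina Genome Analyzer. The authors trimmed adapters and low-quality ends with ShortRead, mapped reads to mirBase 21 with Bowtie 1.1.2 allowing up to 2 mismatches, and counted reads with Rsamtools. The deposited counts are raw reads per mirBase entry, per unmapped sequence and, in the family table, per family, and the counts of all 7785 families equalled the sums over their sequences. The authors clustered unmapped sequences at a Levenshtein distance of 4 and searched the listed most common sequence in mirBase with Blast. The methods name a minimum of more than 7 reads in a library for clustering, but 480 of the 3174 let-7-like sequences had at most 7 in each, and the least sum over both libraries was 8. Of the others, 1154 had more than 7 reads in the blastema alone and 1062 in the control alone. Many sequences thus entered mainly through the library where they are high. The number of sequences in each direction was therefore given only as a limit on the summed changes within families. By the counts, the listed sequence had the most reads in 192 of the 267 families. The deposited normalized, log2 and fold change columns were not used.

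Shares are of the summed deposited counts of each library. Log2 ratios used 0.5 added read, Poisson intervals and, for families, counts and library totals divided by 2. A count of 0 was replaced by 3 reads for bounds, so that a family without reads could still hold 3.01e-05% of the blastema reads or 2.38e-05% of the control reads. No test was made with 1 library per condition. Named are the 10 families with the most reads, the 3 largest log2 ratios in each direction among those with at least 100 reads, the 2 largest families without control reads and the 2 without blastema reads, and the known let-7 list. Other names, the seed classes and the base-by-base comparisons were chosen after their values were seen. The members and lists were chosen with earlier results of these data known. Alternatives were 6 other scalings, 5 added reads, minimums of 0 and 100 reads, a 4-fold limit and other choices of members. The calculations were tested on simulated data. Software was edgeR 4.0.16 on R 4.3.3 for TMM and, for the rest, Python 3.11.15 with pandas 2.3.3, NumPy 2.4.6 and Matplotlib 3.10.9. The mature let-7 sequences of mirBase were not used here.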

Additional observations from a re-analysis of the deposited data

Results flagged for a closer look

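Sequences that begin with GAGGTAG were also found outside the let-7-like families, in data that the comparisons above do not use. There were 557 of them, with 2230 reads in the blastema and 4754 in the control. Of these, 434 belonged to no family (1356 and 1248 reads), 115 to families without a listed homology (762 and 3358 reads) and 8 to families with another homology (112 and 148 reads).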

How the results depend on the processing

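No paired analysis was possible because there is 1 library per condition, and no library could be left out. The summed log2 ratio of let-7-like families, 0.08, was 0.27 with known reads as the total, -1.06 with unmapped reads, -0.54 with the depth stated in the study, -2.06 with TMM, -1.32 without the muscle microRNAs and -0.78 with known let-7 reads. Their median, 0.73, was in the same order 0.92, -0.40, 0.11, -1.41, -0.66 and -0.13, and it was -0.21 with at least 100 reads. Families at least 2-fold higher (122) numbered 43 with TMM, 78 without the muscle microRNAs and 79 with at least 100 reads, and those at least 2-fold lower (92) numbered 147 with TMM. When only the 44 families that list no name but let-7 or miR-98 were kept, these values were -1.87, -0.14, 17 and 19. Families with a muscle homology changed nothing, as there were 0. Of the 17 families named by rule, 9 had a log2 ratio above 0, 4 with TMM and 5 without the muscle microRNAs. Those named for their ratio or for a count of 0 had their sign fixed by that choice. Over all 6846 families with at least 10 reads, 5496 were above 0. Of the 14 known labels, 13 had a log2 ratio above 0. With unmapped reads 8 did, with the stated depth 8, with TMM 2 and without the muscle microRNAs 3.

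Single values of at least 2-fold that changed sign were, with TMM, Amex-miR-pn408 (-1.06), Amex-miR-pn2433 (-0.81), Amex-miR-pn4097 (-1.03), Amex-miR-pn1240 (-0.72), let-7e (-0.79), let-7f (-0.93), let-7g (-0.61), let-7j (-0.77), let-7k (-0.98) and miR-98 (-0.99). Without the muscle microRNAs they were Amex-miR-pn408 (-0.32), Amex-miR-pn2433 (-0.0714), Amex-miR-pn4097 (-0.28), let-7e (-0.0474), let-7f (-0.19), let-7j (-0.0226), let-7k (-0.24) and miR-98 (-0.24). With unmapped reads they were Amex-miR-pn408 (-0.0624) and Amex-miR-pn4097 (-0.0263). Each scaling adds 1 value to every log2 ratio, so these changes follow from its construction. The seed stood in 32.7% of let-7-like sequences, and at positions 2 to 8 of the read in 0.347%. Sequences of 22 nucleotides were 59.8% of the let-7-like blastema reads and 42.8% of the sequences. Depth limits families with few reads in 1 library, for which only bounds or wide intervals can be given.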
